A study of Urocitellus parryii with 3 samples.

Results

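The 5 mature miRNAs described here belong to 2 pairs that are known from cells of the vessel wall and from the stellate cells of the liver. The first pair is miR-199a, with its arms miR-199a-3p and miR-199a-5p, together with miR-214-3p. The second is miR-143-3p with miR-145-5p. They are 5 of 157 mature miRNAs that were looked for in small RNA libraries of arctic ground squirrel (Urocitellus parryii) liver. Reads were found for 4 of the 5 and for 127 of the 157. A read was assigned to a miRNA when it began at the listed first base and shared the first 18 bases. These listed forms are mammalian sequences written from general knowledge and were not checked against a miRNA database or a squirrel annotation. Each distinct read was counted once per stage, whatever the number of genome positions it was placed at.

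The arctic ground squirrel hibernates in bouts of torpor that are broken by short arousals. Liver RNA was mixed in equal amounts from 4 animals in early arousal, from 4 animals in late torpor and from 6 animals after reproduction in summer, which were the non-hibernating control. All were animals caught in the wild; no genotype and no drug group is given. The hibernating animals carried temperature transmitters, lived under 4 h of light and 20 h of dark, and had passed through at least 4 torpor bouts. The protocol gives day 4 of a bout as the time of sampling and does not say how that applies to early arousal. Post-reproduction animals lived under 16 h of light and 8 h of dark and were anaesthetised with isoflurane before decapitation. Wherever post-reproduction is compared, hibernation, season, light cycle and anaesthesia cannot be told apart.

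Each stage is 1 library of pooled RNA, so there is no spread between animals, no test was possible and no p-value is given. Every ratio compares 2 libraries. All intervals are 95% intervals for counting error only. They are exact Poisson for levels, exact conditional binomial (Clopper-Pearson) for ratios between libraries and exact binomial for shares. For a ratio within a library compared between libraries they are exact conditional intervals of the odds ratio for the rare miRNAs, and a normal approximation on the log scale for the 2 pairs. The PCR copies carry no molecular identifiers, so reads are not independent molecules. The table held 5611673 placed reads from early arousal, 5860476 from late torpor and 5614441 from post-reproduction. A listed miRNA was matched by 92.3% of them in early arousal, 94.99% in late torpor and 93.6% in post-reproduction. The hepatocyte miRNA miR-122-5p made up 78.4% of the matched reads in early arousal, 80.3% in late torpor and 80.1% in post-reproduction. The 5 members together made up 0.479% in early arousal, 0.333% in late torpor and 0.430% in post-reproduction.

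In mammals, miR-214 and a copy of miR-199a are cut from a shared long transcript that runs antisense within a dynamin gene. miR-143 and miR-145 are cut from another. miR-214 and the arms of miR-199a are known from activated stellate cells, pericytes and fibroblasts, where they have been tied to matrix production. miR-143 and miR-145 are known for holding smooth muscle cells in their contractile state. A mature miRNA recognises its targets mainly through its seed, bases 2 to 8 from its 5′ end.

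The most abundant read of each member, after removal of the 3′ adapter, is shown to make clear which molecules were counted. Capitals mark the seed, and the names are those of the listed forms whose first 18 bases the reads share.
miR-199a-3p: aCAGTAGTctgcacattggtt
miR-214-3p: aCAGCAGGcacagacaggcagt
miR-143-3p: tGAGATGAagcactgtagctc
miR-145-5p: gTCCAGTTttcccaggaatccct
These 4 have 4 different seeds. The reads shown were 14164 of the miR-199a-3p reads, 12088 of the miR-143-3p reads, 25 of the miR-145-5p reads and 12 of the miR-214-3p reads over the 3 libraries.

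The 5′ arm of miR-199 was looked for because it is the partner of the abundant 3′ arm. No read shared the first 18 bases of the listed miR-199a-5p in any library. Taken as a one-sided limit, a count of 0 allows up to 3 reads, which is 0.527 CPM in early arousal, 0.602 CPM in late torpor and 0.562 CPM in post-reproduction. This limit covers counting error only, for reads that could be placed and that match the listed form. The listed miR-22-3p, miR-148a-3p, miR-192-5p and let-7g-5p also had 0 reads in each library. The 0 is therefore no measure of how much miR-199a-5p the liver held. CPM (counts per 1000000) here are relative to the matched miRNA reads and scaled between libraries by trimmed mean factors. The 5′ arms found opposite miR-199a-3p on its 2 scaffolds are shown because they separate the 2 loci. They have the same seed and differ from each other further on.
miR-199b-5p, opposite arm on GeneScaffold 1287: cCCAGTGTttagactatctgtt
miR-199a-5p-like read, opposite arm on GeneScaffold 2212: cCCAGTGTtcagactagtgttc
The first of them shared all 18 bases of the listed miR-199b-5p and had 57 reads. It differed from the listed miR-199a-5p at 2 of the 18 bases. The second had 6 reads and differed from the listed miR-199a-5p at 2 of the 18 bases and from the listed miR-199b-5p at 3. It was looked up after miR-199a-5p had shown no read, and under the 18-base rule it is not counted as miR-199a-5p.

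These arms lie where miR-199a-3p reads were placed. All 34663 miR-199a-3p reads were placed at 2 positions, both on the minus strand. One was GeneScaffold 1287, 98448 to 98468 for the read shown above, and the other was GeneScaffold 2212, 324032 to 324052. The 5′ end of the miR-199b-5p reads lay 39 bases upstream of that of miR-199a-3p on the first scaffold, and the 5′ end of the miR-199a-5p-like reads lay 40 bases upstream on the second. The same 3′ arm thus belongs to both, and reads of miR-199a-3p and of miR-199b-3p cannot be told apart. The name miR-199a-3p stands for both in the values here.

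miR-214-3p was placed once, on the minus strand of GeneScaffold 1829, 266674 to 266695, and none of the miR-199a-3p reads was placed on that scaffold. The deposited placements therefore do not join the members of this pair. miR-143-3p and miR-145-5p lay on one scaffold. On the minus strand of scaffold 148927, miR-143-3p was placed at 11649 to 11669 and miR-145-5p at 10348 to 10370, with 1299 bases between their 5′ ends. All 31147 miR-143-3p reads and all 67 miR-145-5p reads were placed once. The genome build of these scaffolds is not given in the sources used here. A miRNA whose locus is missing from that build, or differs in it, may leave no read in the table. Its reads can still appear where they are placed at another position, or where the difference lies past the placed part.

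The comparison of the pairs asked whether their levels moved together over the stages. Within a library, the reads of the miR-143/miR-145 pair numbered 12807 in early arousal, 8205 in late torpor and 10202 in post-reproduction. Those of the miR-199a/miR-214 pair numbered 12009 in early arousal, 10348 in late torpor and 12386 in post-reproduction. The miR-143/miR-145 pair was the larger one in early arousal and the smaller one in the other 2 libraries. The ratio of miR-143/miR-145 to miR-199a/miR-214 was 1.07 in early arousal, against 0.793 in late torpor and 0.824 in post-reproduction. As a share of the reads of both pairs, miR-143/miR-145 made up 51.6% (51.0 to 52.2) in early arousal, 44.2% (43.5 to 44.9) in late torpor and 45.2% (44.5 to 45.8) in post-reproduction.

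This ratio is taken within a library and needs no scaling between libraries. It was 1.34 times as high in early arousal as in late torpor (interval 1.29 to 1.40) and 1.29 times as high in early arousal as in post-reproduction (1.25 to 1.34). Between late torpor and post-reproduction it was 0.963 (0.926 to 1.001), an interval that holds 1. With 1 mismatch allowed, its log2 value was -0.062 (-0.12 to -0.0055), and with adapter found it was -0.070 (-0.13 to -0.013), so that these intervals lay below 0. The balance of the 2 pairs thus differed beyond counting error in the early arousal library, against either of the others. The values of a pair are nearly those of its most abundant member. For miR-143-3p over miR-199a-3p alone, the ratios were 1.07 in early arousal, 0.794 in late torpor and 0.824 in post-reproduction. Both comparisons of early arousal use the same early arousal library and are not independent of each other. How far animals of one stage vary was not measured.

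**Figure D1:**
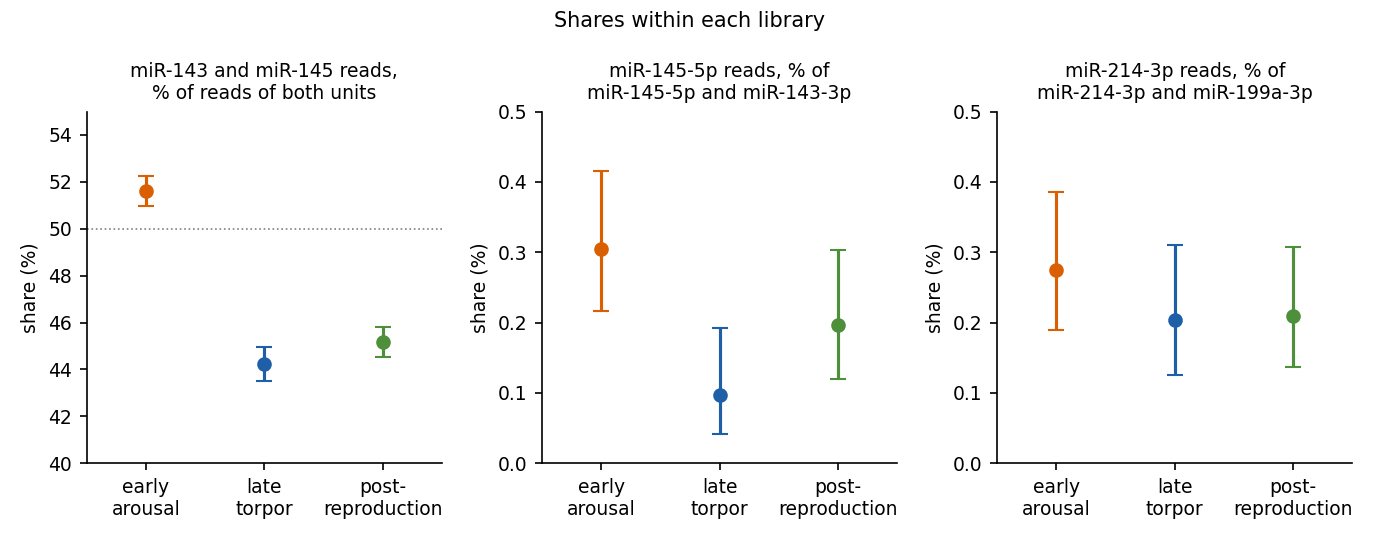
Shares within each library (%), for early arousal, late torpor and post-reproduction, as points with exact binomial 95% intervals; the left axis starts at 40% and the dotted line marks equal reads of both pairs. The miR-143/miR-145 share stands at 51.6% in early arousal, against 44.2% in late torpor and 45.2% in post-reproduction, and the shares of the rare members miR-145-5p and miR-214-3p beside the main member of their pair are also shown; those of miR-145-5p in early arousal and late torpor do not overlap.

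miR-199a-3p, the 3′ arm shared with miR-199b, was among the abundant liver miRNAs, at rank 13 in early arousal, 13 in late torpor and 10 in post-reproduction. It had 11976 reads or 2103 CPM in early arousal (2066 to 2141), 10327 reads or 2072 CPM in late torpor (2033 to 2113) and 12360 reads or 2314 CPM in post-reproduction (2274 to 2355). With this scaling early arousal and late torpor were close to each other and both lay below post-reproduction. In plain CPM of the matched reads, early arousal was instead close to post-reproduction and late torpor stood lower. The scaled ratio of early arousal to late torpor was 1.01 (0.988 to 1.04). Its interval held 1, whereas under all 9 alternatives that gave a value it lay above 1, with log2 ratios of 0.060 to 0.32. The ratio of early arousal to post-reproduction was 0.909 (0.886 to 0.932) and that of late torpor to post-reproduction 0.896 (0.872 to 0.919).

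miR-214-3p, known as a stellate cell miRNA that travels with miR-199a, was rare. It had 33 reads or 5.80 CPM in early arousal (3.99 to 8.14), 21 reads or 4.21 CPM in late torpor (2.61 to 6.44) and 26 reads or 4.87 CPM in post-reproduction (3.18 to 7.13). The 3 intervals overlap widely. The ratios were 1.38 (0.772 to 2.501) for early arousal over late torpor, 1.19 (0.691 to 2.07) for early arousal over post-reproduction and 0.866 (0.463 to 1.60) for late torpor over post-reproduction, and a difference was not detectable at this depth. The direction was not stable either. With adapter found only, the log2 ratio of late torpor to post-reproduction was 0.53 (-0.54 to 1.64) and that of early arousal to post-reproduction 0.85 (-0.15 to 1.91). An adapter was found in 75.8% of the miR-214-3p reads in early arousal, 90.5% in late torpor and 53.8% in post-reproduction. With shifted starts counted, early arousal over post-reproduction was -0.036 (-0.74 to 0.67). As a share of its reads and those of miR-199a-3p, miR-214-3p made up 0.275% in early arousal, 0.203% in late torpor and 0.210% in post-reproduction. Adapter ligation is known to favour some RNA ends, so read counts of different miRNAs are not molar amounts.

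miR-143-3p, the more abundant arm of a smooth muscle miRNA, ranked 12 in early arousal, 16 in late torpor and 13 in post-reproduction. It had 12768 reads or 2242 CPM in early arousal (2204 to 2282), 8197 reads or 1645 CPM in late torpor (1610 to 1681) and 10182 reads or 1906.5 CPM in post-reproduction (1870 to 1944). Early arousal was the highest and late torpor the lowest, with no overlap of the counting intervals. The ratio of early arousal to late torpor was 1.36 (1.33 to 1.40). The ratio of early arousal to post-reproduction was 1.18 (1.15 to 1.21) and that of late torpor to post-reproduction 0.863 (0.838 to 0.888).

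miR-145-5p, which is known to act with miR-143 on the contractile genes of smooth muscle, had the same order of levels on few reads. It had 39 reads or 6.85 CPM in early arousal (4.87 to 9.36), 8 reads or 1.61 CPM in late torpor (0.693 to 3.16) and 20 reads or 3.74 CPM in post-reproduction (2.29 to 5.78). Its ratio of early arousal to late torpor was 4.27 (1.97 to 10.6) and that of early arousal to post-reproduction 1.83 (1.04 to 3.31). With only the most abundant insert counted, 12 reads in early arousal and 6 in late torpor, the log2 ratio was 0.95 with an interval of -0.58 to 2.64 that holds 0, and that over post-reproduction was 0.85 (-0.61 to 2.43). The ratio of late torpor to post-reproduction was 0.429 with an interval of 0.163 to 1.02 that holds 1. In plain CPM this log2 ratio was -1.41, with an interval of -2.80 to -0.16 that lies below 0. Relative to miR-143-3p in the same library, miR-145-5p was 3.13 times as high in early arousal as in late torpor (1.44 to 7.76). Over post-reproduction that value was 1.56 for the early arousal library (0.885 to 2.82). For the late torpor library it was 0.497 (0.189 to 1.18).

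**Figure D2:**
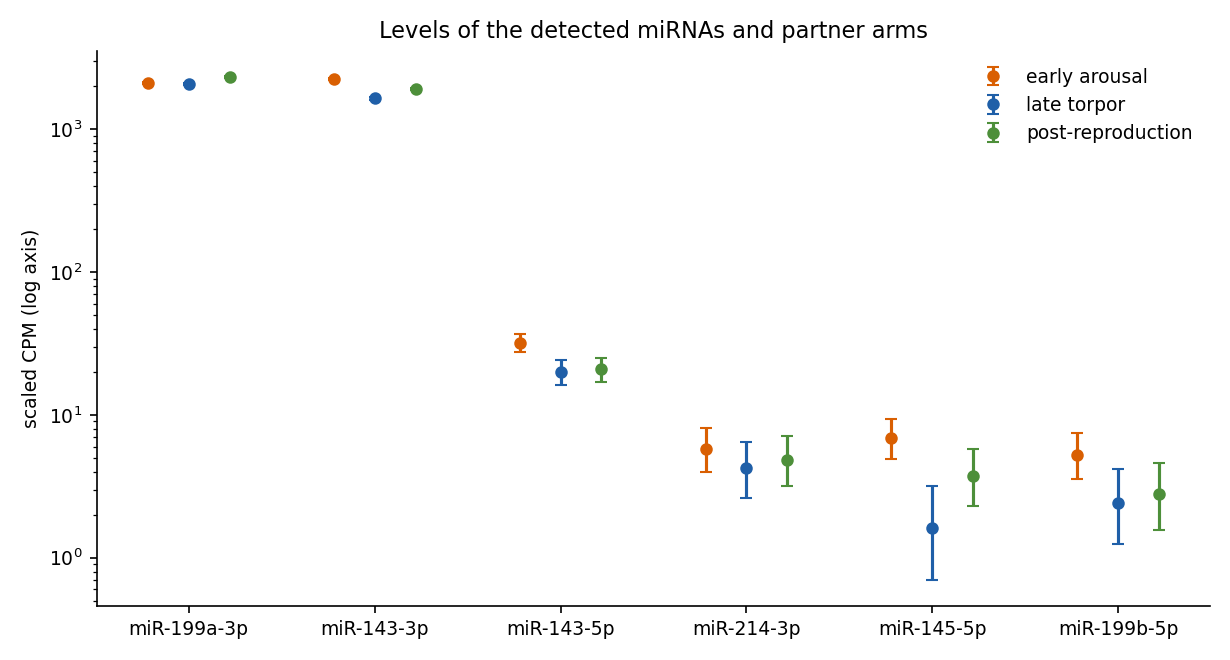
Scaled CPM on a log axis of miR-199a-3p, miR-143-3p and miR-143-5p, and of the rare miR-214-3p, miR-145-5p and miR-199b-5p, in early arousal, late torpor and post-reproduction; points are single pooled libraries and bars are exact Poisson 95% intervals. miR-143-3p stands at 2242 CPM in early arousal, 1645 CPM in late torpor and 1906.5 CPM in post-reproduction, while the intervals of miR-214-3p overlap.

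The partner arms were read as a second view of the same precursors. miR-143-5p, the rarer arm of miR-143, had 181 reads or 31.8 CPM in early arousal, 99 reads or 19.9 CPM in late torpor and 111 reads or 20.8 CPM in post-reproduction. Early arousal again stood highest, with ratios of 1.60 (1.25 to 2.07) over late torpor and 1.53 (1.20 to 1.95) over post-reproduction. Late torpor over post-reproduction was 0.956 (0.722 to 1.26). Relative to miR-143-3p, miR-143-5p was 1.17 times as high in early arousal as in late torpor, with an interval of 0.912 to 1.52 that holds 1. Against post-reproduction it was 1.3004 times as high in early arousal (1.02 to 1.66).

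miR-145-3p, the partner of miR-145-5p, mostly began 2 bases after its listed start, and its most abundant form is shown for that reason.
miR-145-3p, start 2 bases later: aTTCCTGGaaatactgttctt
With starts within 2 bases of the listed one it had 79 reads or 13.9 CPM in early arousal, 47 reads or 9.43 CPM in late torpor and 57 reads or 10.7 CPM in post-reproduction. The ratio of early arousal to late torpor was 1.47 (1.01 to 2.16), and the other 2 intervals hold 1. It thus had more reads than miR-145-5p had at its listed start, 2.03 times as many in early arousal, 5.88 times in late torpor and 2.85 times in post-reproduction. At its own listed start miR-145-3p had 4 reads in early arousal, 3 in late torpor and 6 in post-reproduction.

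miR-199b-5p had 30 reads or 5.27 CPM in early arousal, 12 reads or 2.41 CPM in late torpor and 15 reads or 2.81 CPM in post-reproduction. Its ratio of early arousal to late torpor was 2.19 (1.09 to 4.69), that of early arousal to post-reproduction 1.88 (0.978 to 3.75). Relative to miR-199a-3p it was 2.16 times as high in early arousal as in late torpor (1.07 to 4.63) and 2.06 times as high as in post-reproduction (1.08 to 4.13). The miR-199a-5p-like form of the other locus had 1 read in early arousal, 1 in late torpor and 4 in post-reproduction. miR-214-5p, the other arm of miR-214, had 2 reads in early arousal, 1 in late torpor and 0 in post-reproduction. miR-3120-3p, whose gene lies on the strand opposite miR-214 and which was named after its values were seen, had 15 reads in early arousal, 17 in late torpor and 10 in post-reproduction. Its reads began 21 bases from the 5′ end of miR-214-3p, on the plus strand of GeneScaffold 1829.

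Set against all miRNAs, the ratios of the 2 abundant members were moderate. Of 91 miRNAs with at least 100 reads over both libraries, 5.49% were at least 1.5-fold higher and 8.79% at least 1.5-fold lower in early arousal than in late torpor. Of the 5 members, 2 had 100 reads, miR-199a-3p and miR-143-3p, and 0 of the 2 passed 1.5-fold in either direction. In early arousal over post-reproduction, 8.79% of 91 miRNAs were at least 1.5-fold higher and 13.2% at least 1.5-fold lower, with 0 of the 2 members among them. In late torpor over post-reproduction 7.69% were higher and 7.69% lower, again with 0 of the 2 members. In plain CPM 12 miRNAs were higher and 5 lower in early arousal over late torpor, 12 higher and 9 lower in early arousal over post-reproduction, and 4 higher and 7 lower in late torpor over post-reproduction. The rare miR-145-5p, below the minimum of 100 reads, had ratios past 1.5-fold in all 3 comparisons. These rest on 39 reads in early arousal, 8 in late torpor and 20 in post-reproduction. The interval of late torpor over post-reproduction held 1. The shares above are for miRNAs with at least 100 reads and give no frame for it. The similarly rare miR-199b-5p was also past 1.5-fold, at 2.19 for early arousal over late torpor and 1.88 over post-reproduction. Among the 91, 8 had a higher ratio of early arousal to late torpor than miR-143-3p, and 28 a higher one than miR-199a-3p. For late torpor over post-reproduction the 2 members lay close together on the low side, with 72 miRNAs above miR-143-3p and 70 above miR-199a-3p.

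The ratios between libraries depend on the scaling. The median log2 ratio of the 91 miRNAs was -0.10 for early arousal over late torpor, 0.0036 for early arousal over post-reproduction and 0.07 for late torpor over post-reproduction. Without the trimmed mean factors, in plain CPM of the matched reads, every log2 ratio of early arousal to late torpor is higher by 0.30. miR-143-3p is then 1.67-fold higher in early arousal, past the 1.5-fold limit, and miR-199a-3p is 1.25-fold higher. Of the 5 other scalings tried, 2 were chosen after seeing the data. Under the 4 beside plain CPM, the ratio of miR-143-3p was 1.40 to 1.63 and that of miR-199a-3p 1.04 to 1.21. In the comparisons with post-reproduction both members kept their direction under all 5 other scalings, although in plain CPM the ratio of miR-199a-3p in early arousal over post-reproduction was 0.982 and its interval held 1. With adapter found only, that interval held 1 as well.

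**Figure D3:**
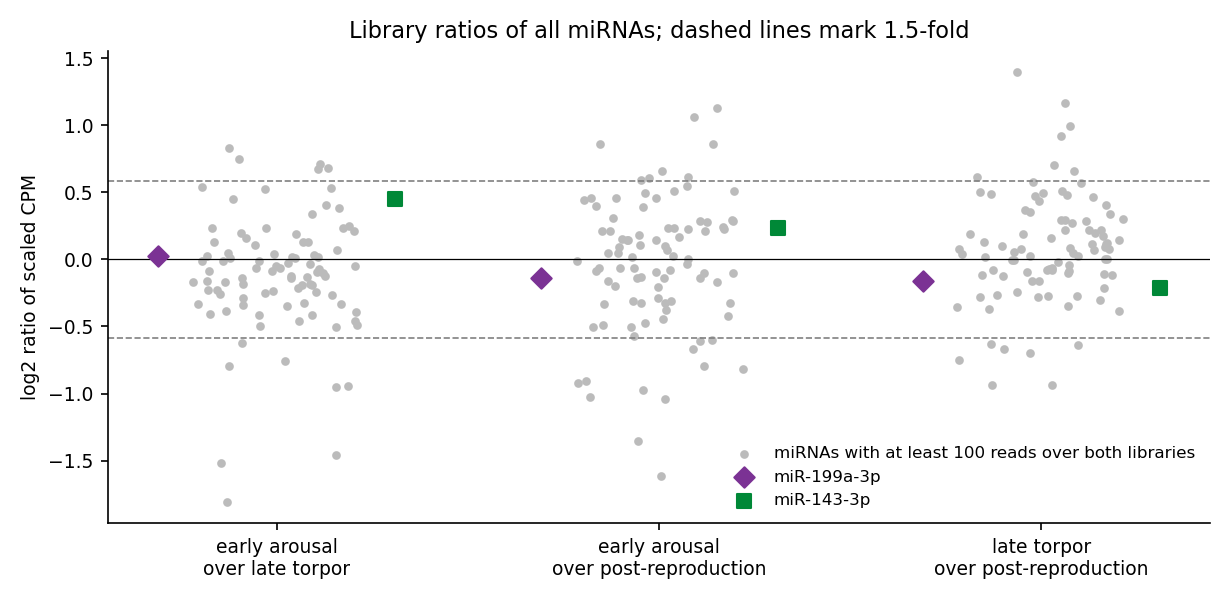
Log2 ratios of scaled CPM between libraries for the 91 miRNAs with at least 100 reads over both libraries (grey points, spread sideways for view), with miR-199a-3p (diamonds) and miR-143-3p (squares); dashed lines mark 1.5-fold. miR-143-3p stands at a log2 ratio of 0.45 in early arousal over late torpor and 0.23 over post-reproduction, where miR-199a-3p stands at 0.02 and -0.14, and in late torpor over post-reproduction they lie at -0.21 and -0.16.

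The miRNAs with the pattern most like that of a member were found by the distance of their log2 CPM, centred over the 3 stages, among 73 others with at least 100 reads in each library. Nearest to miR-199a-3p were miR-195-5p at a distance of 0.05, miR-101-3p at 0.06 and miR-7a-5p at 0.08. Nearest to miR-143-3p were miR-103-3p with miR-107-3p, which share their first 18 bases, at 0.15, miR-497-5p at 0.17 and let-7d-5p at 0.17. The members were not close to each other, at 0.33. miR-143-3p was 42nd in order of distance from miR-199a-3p, and miR-199a-3p was 18th from miR-143-3p. With 3 points each, such distances only describe these libraries.

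The wider list held 19 miRNAs known from stellate, fibroblast or vessel wall cells, several of which hepatocytes also express. It includes the partner arms miR-199b-5p, miR-214-5p, miR-143-5p and miR-145-3p, so it is not independent of the members. All 19 had reads, and they did not move as one. Over the list, summed levels were 11810 CPM in early arousal, 13407 CPM in late torpor and 12847 CPM in post-reproduction, the reverse of the order of miR-143-3p. That order depends on the scaling, which was checked for the lists after seeing the data. In plain CPM the sums were 12980 in early arousal, 12001 in late torpor and 13060 in post-reproduction, with late torpor lowest as for miR-143-3p. The largest parts of the sums were miR-29a-3p and miR-21-5p. In scaled CPM, miR-29a-3p had 5084 in early arousal, 5542 in late torpor and 4851 in post-reproduction. miR-21-5p had 1855 in early arousal, 2557 in late torpor and 1982 in post-reproduction. Of the 15 with at least 100 reads, 4 had an interval above 1 in early arousal over late torpor, 7 below 1 and 4 holding 1, with a median ratio of 0.936, equal to that of all 91 miRNAs. Among the 91, 19.8% had an interval above 1 and 39.6% one below 1. In plain CPM the list had 9 above 1 and 2 below 1, where 51 of the 91 were above and 12 below. miR-497-5p was the highest beside miR-143-5p, at 1.60 (1.25 to 2.05), and miR-21-5p, a miRNA raised in fibrosis and in many other states, was the lowest at 0.726 (0.707 to 0.745). Over post-reproduction, early arousal had 5 above, 9 below and 1 holding 1, with a median of 0.931 against 1.0025 for all, of which 38.5% were above and 36.3% below. There miR-152-3p was the lowest at 0.490 (0.468 to 0.514). Late torpor over post-reproduction had 3 above, 4 below and 8 holding 1, with a median of 0.956 against 1.05 for all, of which 34.1% were above and 24.2% below. In plain CPM the list had 5 above and 5 below in early arousal over post-reproduction, and 1 above and 9 below in late torpor over post-reproduction.

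Summed levels of markers of other cells also differed between the libraries, and no intervals were taken for these sums. Differences were general. Among the 91 miRNAs, the interval held 1 for 37 in early arousal over late torpor, 23 in early arousal over post-reproduction and 38 in late torpor over post-reproduction. The leukocyte and biliary lists had 1 miRNA each with at least 100 reads. Red-cell miRNAs, 3 of 3 with reads, summed to 135 CPM in early arousal, 320 CPM in late torpor and 180 CPM in post-reproduction. Among them miR-451a alone had 77.8 CPM in early arousal, 149 CPM in late torpor and 66.7 CPM in post-reproduction, so that it stood higher in early arousal than in post-reproduction. The list for skeletal or cardiac muscle, 3 of 3 with reads, summed to 2994 CPM in early arousal, 2519 CPM in late torpor and 1652 CPM in post-reproduction. It consisted almost wholly of miR-1-3p. miR-206-3p had 11.6 CPM in early arousal, 11.2 CPM in late torpor and 11.2 CPM in post-reproduction, and miR-133a-3p had 1 read in late torpor and none elsewhere. Endothelial miRNAs, 2 of 2, summed to 31.1 CPM in early arousal, 40.1 CPM in late torpor and 29.0 CPM in post-reproduction. For both, the interval of early arousal over post-reproduction held 1. Leukocyte miRNAs, 4 of 4, summed to 60.2 CPM in early arousal, 93.7 CPM in late torpor and 50.9 CPM in post-reproduction. That sum was almost wholly miR-142-5p, with 59.0 CPM in early arousal, 91.1 CPM in late torpor and 48.1 CPM in post-reproduction. miR-223-3p, a myeloid miRNA, had 1.05 CPM in early arousal, 2.41 CPM in late torpor and 2.62 CPM in post-reproduction. Biliary miRNAs summed to 16.7 CPM in early arousal, 22.7 CPM in late torpor and 43.1 CPM in post-reproduction, with 3 of 4 detected and miR-200c-3p at 0. Among the summed lists, early arousal was highest only for skeletal or cardiac muscle, through miR-1-3p alone. It was also highest in the miR-143/miR-145 pair, and in single miRNAs such as miR-181a-5p, miR-9-5p, let-7d-5p and miR-99a-5p. Others, such as miR-21-5p, were highest in late torpor. A highest value in early arousal was thus not particular to muscle miRNAs and this pair. The part of other cell types in the values of the members was not tested. In whole liver, fewer cells of a type and less of a miRNA per cell cannot be told apart.

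miR-199a-3p had a second feature beside its level: many of its reads began at another base. Starts shifted by 1 base move the seed, so the most abundant read of each is shown with its own seed in capitals.
miR-199a-3p, start 1 base earlier: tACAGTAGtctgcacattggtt
miR-199a-3p, start 1 base later: cAGTAGTCtgcacattggtta
Both ended within 1 base of the 3′ end of the form with the listed start. Reads that began 1 base earlier numbered 1020 in early arousal, 1056 in late torpor and 1482 in post-reproduction. Of all miR-199a-3p reads with a start within 2 bases they made up 7.62% (7.18 to 8.08) in early arousal, 8.98% (8.47 to 9.51) in late torpor and 10.4% (9.93 to 10.9) in post-reproduction. The share was lowest in early arousal and highest in post-reproduction, with no overlap of the intervals. In CPM this form had a ratio of 0.646 (0.595 to 0.700) for early arousal over post-reproduction and 0.764 (0.705 to 0.827) for late torpor over post-reproduction.

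Reads that began 1 base later numbered 373 in early arousal, 369 in late torpor and 357 in post-reproduction, or 2.79% of the reads at all starts in early arousal, 3.14% in late torpor and 2.51% in post-reproduction. Starts 2 bases later had 13 reads in early arousal, 10 in late torpor and 11 in post-reproduction, and starts 2 bases earlier had none. All other starts together made up 10.5% of miR-199a-3p in early arousal, 12.2% in late torpor and 13.0% in post-reproduction. For miR-143-3p they made up 1.32% in early arousal, 1.09% in late torpor and 1.13% in post-reproduction. Among 40 miRNAs with at least 1000 reads with adapter in each library, the median share of other starts was 0.520% in early arousal, 0.634% in late torpor and 0.411% in post-reproduction. Only 3 of the 40 in early arousal, 3 in late torpor and 2 in post-reproduction had a larger share than miR-199a-3p. Unlike miR-199a-3p, 26 of the 40 had a higher share in early arousal than in late torpor, and 27 a higher one than in post-reproduction.

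The 3′ ends also differed between the stages. Of the miR-199a-3p reads with adapter, 41.9% were of 21 nt in early arousal, 42.2% in late torpor and 46.1% in post-reproduction. The 22 nt form had 43.9% in early arousal, 44.7% in late torpor and 43.7% in post-reproduction. The 23 nt form had 10.5% in early arousal, 9.46% in late torpor and 7.27% in post-reproduction. The 23 nt form was thus least frequent in post-reproduction (6.81 to 7.75). It was most frequent in early arousal (9.94 to 11.06), with an interval that overlaps that of late torpor (8.89 to 10.05). Longer inserts than in post-reproduction were common. Among the 40 miRNAs, mean insert length was higher in early arousal than in post-reproduction for 30 and higher in late torpor than in post-reproduction for 31. It was higher in early arousal than in late torpor for 16. miR-143-3p was shorter than miR-199a-3p. Its 21 nt form had 49.5% in early arousal, 47.8% in late torpor and 47.5% in post-reproduction, and its 20 nt form 26.7% in early arousal, 27.5% in late torpor and 29.0% in post-reproduction.

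Reads whose insert ran past the part placed on the scaffold carry 3′ bases that did not match the scaffold. They made up 21.8% (21.04 to 22.5) of miR-199a-3p in early arousal, 18.7% (18.0 to 19.5) in late torpor and 15.6% (14.9 to 16.3) in post-reproduction. For miR-143-3p the shares were 30.7% (29.8 to 31.5) in early arousal, 30.1% (29.1 to 31.1) in late torpor and 26.6% (25.7 to 27.5) in post-reproduction. A single A or a single T was the usual extra base. In miR-199a-3p a single A had 7.10% in early arousal, 6.34% in late torpor and 5.49% in post-reproduction, and a single T had 9.35% in early arousal, 8.72% in late torpor and 7.39% in post-reproduction. Both were highest in early arousal, but for each the intervals of early arousal and late torpor overlap. In miR-143-3p a single A had 8.57% in early arousal, 8.82% in late torpor and 6.22% in post-reproduction. A single T in miR-143-3p was highest in post-reproduction, with 11.7% in early arousal, 11.5% in late torpor and 13.5% in post-reproduction. A single C or G stayed at or under 0.369% in each of these libraries.

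A larger share of such reads in early arousal was common to most miRNAs. Of the 40 miRNAs, 36 had a higher share in early arousal than in post-reproduction and 36 a higher one than in late torpor, with medians of 28.2% in early arousal, 26.1% in late torpor and 23.7% in post-reproduction. The 2 members therefore followed the general direction. The 40 include let-7i-5p, miR-21-5p and miR-222-3p, for which nearly all reads ran past the placed part. In early arousal these shares were 99.9% for let-7i-5p, 99.8% for miR-21-5p and 99.97% for miR-222-3p. For such miRNAs the share need not stand for bases added at the 3′ end. The share of reads with an adapter found without mismatch also differed, at 77.0% of the miR-199a-3p reads in early arousal, 77.3% in late torpor and 61.9% in post-reproduction. The part of read quality in these shares was not tested.

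**Figure D4:**
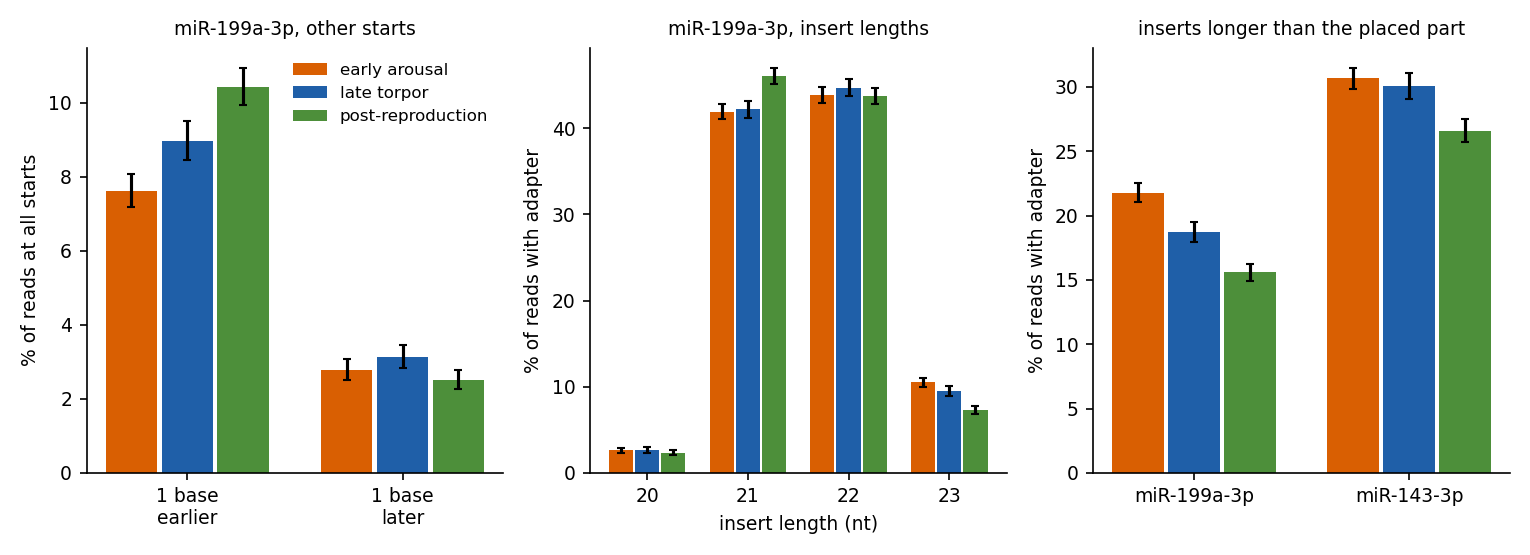
Forms of miR-199a-3p and miR-143-3p in early arousal, late torpor and post-reproduction, as bars with exact binomial 95% intervals: the share of miR-199a-3p reads with another start (% of reads at all starts), its insert lengths (% of reads with adapter), and inserts longer than the placed part (% of reads with adapter). The earlier start takes 7.62% in early arousal, 8.98% in late torpor and 10.4% in post-reproduction, while the 23 nt insert takes 10.5% in early arousal, 9.46% in late torpor and 7.27% in post-reproduction.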

How the data were processed

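The authors deposited 1 table that lists reads by scaffold position, with a whole-number count for each read and stage, per the file headers. Per the labels' protocols, about 10 µg of pooled RNA per stage was cut at 18 to 30 nt, ligated to adapters and amplified by 15 cycles of PCR. Aligner, genome build and filters are not stated there. All reads have 30 bases, of which at least 18 were placed.

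The first 18 bases of 157 mature mammalian miRNAs were written from general knowledge and not checked against a miRNA database, so they are listed forms and not squirrel annotations. Counts were scaled by trimmed mean factors (30% on ratio, 5% on abundance) of 1.10 for early arousal, 0.895 for late torpor and 1.02 for post-reproduction, computed with code written for this purpose (Python 3.11.15, numpy 2.4.6, pandas 2.3.3, scipy 1.17.1). Figures used matplotlib 3.10.9. Inserts of 18 to 25 nt were accepted where the first 5 adapter bases had at most 1 mismatch. The code was tested on simulated data.

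The miRNAs named were the members, their partner arms, the lists of cell type miRNAs and the 3 miRNAs nearest to each member with at least 100 reads. Within lists, examples were chosen after their values were seen. Members and lists were chosen with earlier results of these data known.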

Additional observations from a re-analysis of the deposited data

How the results depend on the processing

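No paired analysis was possible because each stage is 1 pooled library. Values are log2 ratios unless stated, and where 2 stand together the second is that of the pair. Scalings or matchings chosen after seeing the data were the library size without miR-122 and let-7, the trimmed mean over miRNAs with at least 100 reads, and counting the most abundant insert or member alone. For miR-199a-3p and its pair, early arousal over late torpor was 0.32 in plain CPM, 0.28 relative to placed reads, 0.11 by median of ratios, 0.060 and 0.061 without miR-122 and let-7, 0.12 with the trimmed mean over miRNAs with at least 100 reads, 0.10 with 1 mismatch, 0.075 with shifted starts, 0.14 with adapter found and 0.13 with the most abundant insert. For miR-143-3p and its pair it was 0.74 and 0.75 in plain CPM, 0.70 relative to placed reads, 0.53 by median of ratios, 0.55 with that trimmed mean, 0.54 with 1 mismatch, 0.53 with shifted starts, 0.55 and 0.56 with adapter found and 0.60 with the most abundant insert, which gave miR-145-5p 0.95 (-0.58 to 2.64). For early arousal over post-reproduction, miR-199a-3p and its pair had -0.025 in plain CPM, -0.045 and -0.044 relative to placed reads, -0.10 by median of ratios, -0.10 without miR-122 and let-7, -0.20 with shifted starts and -0.012 and -0.011 with adapter found, and miR-143-3p and its pair had 0.35 in plain CPM, 0.33 relative to placed reads, 0.27 without miR-122 and let-7, 0.34 with adapter found and 0.34 with the most abundant insert. For late torpor over post-reproduction, miR-199a-3p and its pair had -0.34 in plain CPM, -0.32 relative to placed reads, -0.21 by median of ratios, -0.26 with the trimmed mean over miRNAs with at least 100 reads, -0.24 with 1 mismatch, -0.28 with shifted starts, and -0.25 and -0.24 with the most abundant insert. Under the same alternatives miR-143-3p and its pair had -0.40, then -0.37 and -0.38, then -0.26, -0.31, -0.31, -0.32 and -0.26. With sequences placed at 1 position only, miR-199a-3p has no reads and its pair is miR-214-3p alone, at 0.57 for early arousal over late torpor, 0.22 for early arousal over post-reproduction and -0.34 for late torpor over post-reproduction, while miR-143-3p and its pair had 0.55 and 0.56 over late torpor and -0.35 for late torpor over post-reproduction. The change of miR-143/miR-145 over miR-199a/miR-214 was then -0.0097 and -0.016 for early arousal over late torpor and over post-reproduction. That change otherwise stayed within its interval, except 0.46 over post-reproduction with the most abundant insert. For late torpor over post-reproduction its interval held 0 as reported and lay below 0 with 1 mismatch and with adapter found. Without the minimum of 100 reads, 13 miRNAs were 1.5-fold higher and 14 lower in early arousal over late torpor, 17 higher and 21 lower in early arousal over post-reproduction, and 14 higher and 12 lower in late torpor over post-reproduction. In plain CPM and relative to placed reads, 12 were higher and 5 lower in early arousal over late torpor, and 4 higher in late torpor over post-reproduction. In early arousal over post-reproduction 12 were higher and 9 lower in plain CPM, and 11 higher and 9 lower relative to placed reads. With no adapter mismatch, 22 nt took 40.3% of miR-199a-3p in early arousal, 42.0% in late torpor and 35.9% in post-reproduction. The causes were not tested. Reads equal to a full listed sequence were not counted, since only the first 18 bases were listed, and the ratio of miR-199a-3p to miR-199a-5p was not computed, since miR-199a-5p had 0 reads. Depth limits miR-214-3p and miR-145-5p, at 80 and 67 reads in all.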

Other observations

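On GeneScaffold 2212, 11 reads lay on the strand opposite the miR-199a-5p-like arm, 2 in early arousal, 5 in late torpor and 4 in post-reproduction. Their 5′ end was 23 bases from that of miR-199a-3p. Their most abundant insert was placed at 324075 to 324096, and that of the miR-199a-5p-like arm at 324071 to 324092. They were noticed in the table and belong to none of the 157 listed miRNAs. miR-214-3p also had reads with another start: 1 base earlier began 3 of 37 reads in early arousal, 10 of 33 in late torpor and 9 of 35 in post-reproduction. That is 8.11% in early arousal (1.70 to 21.9), 30.3% in late torpor (15.6 to 48.7) and 25.7% in post-reproduction (12.5 to 43.3), with overlapping intervals.

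miR-195-5p and miR-497-5p, which come from one transcript in mammals, fell to different members by their pattern over the 3 libraries, miR-195-5p next to miR-199a-3p and miR-497-5p next to miR-143-3p. miR-195-5p had 25.1 CPM in early arousal, 25.3 CPM in late torpor and 26.96 CPM in post-reproduction, and miR-497-5p had 33.4 CPM in early arousal, 20.9 CPM in late torpor and 25.3 CPM in post-reproduction. The ratio of early arousal to late torpor was 0.993 (0.776 to 1.27) for miR-195-5p and 1.60 (1.25 to 2.05) for miR-497-5p. They were singled out after their values were seen.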
